A study of Rattus norvegicus with 24 samples.

Results

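The genes described here are 7 that are commonly used to recognise pericytes: Rgs5, Rgs4, Cspg4, Notch3, Abcc9, Kcnj8 and Angpt1. They were chosen by name, and all 7 were found among the 19963 targets of the assay, which include a negative probe. The tissue was skin wound from male SD (Sprague-Dawley) rats given STZ (streptozotocin) at 5 weeks of age, so every group, the controls included, was diabetic. Each wound was a full-thickness defect of 8 mm, splinted against contraction and taken at day 7. The 3 treatments were Sham, a hydrogel (Gel) and a hydrogel with a nanozyme (CuNZ@Gel), whose composition the labels do not give. Each treatment had 2 numbered specimens, each specimen 2 regions, and each region 2 segments, which gives 24 areas and 8 per treatment. GeoMx digital spatial profiling counts indexed probe tags released by light from an area of a tissue section, so each value is a mixture of the cells in that area. The labels state neither the fluorescent markers nor what distinguishes Segment 1 from Segment 2, and leave the region name "mac" unexplained. They also do not say that a specimen is an animal, so the p-values measure the spread between specimens only and may be too small.

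Pericytes are mural cells that lie on capillaries and small venules, inside the basement membrane that they share with the endothelium. Endothelial PDGF-B recruits them through the receptor encoded by Pdgfrb, Notch ligands on endothelial cells act on mural Notch3, and mural angiopoietin-1 acts back on the endothelial receptor Tek. In healing skin they cover and stabilise new capillaries, and loss of pericytes from small vessels is a known feature of diabetes.

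The genes lie on 4 chromosomes in the RefSeq annotation of the rat assembly GRCr8, and 2 pairs of them are neighbours. Rgs5 and Rgs4 adjoin each other on chromosome 13, and Abcc9 and Kcnj8 on chromosome 4. Promoters, taken as 250 bases before to 50 bases after the gene start, were found for 6 of the 7 genes (not for Angpt1) in the RefSeq table for GRCr8. Shown here are those of Rgs5, Cspg4 and Abcc9, the genes that differed between the segments, and that of Rgs4, the neighbour of Rgs5 that stayed at background. Capitals mark the motifs found.
Rgs5, chr13:84380827-84381126, plus strand, 5′ to 3′: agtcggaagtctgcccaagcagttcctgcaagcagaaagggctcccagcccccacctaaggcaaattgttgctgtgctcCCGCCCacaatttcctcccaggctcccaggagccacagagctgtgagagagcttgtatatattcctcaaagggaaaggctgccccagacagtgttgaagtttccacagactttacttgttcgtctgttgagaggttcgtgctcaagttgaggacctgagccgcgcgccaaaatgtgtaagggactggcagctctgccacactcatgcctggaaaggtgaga
Rgs4, chr13:84475835-84476134, minus strand, 5′ to 3′: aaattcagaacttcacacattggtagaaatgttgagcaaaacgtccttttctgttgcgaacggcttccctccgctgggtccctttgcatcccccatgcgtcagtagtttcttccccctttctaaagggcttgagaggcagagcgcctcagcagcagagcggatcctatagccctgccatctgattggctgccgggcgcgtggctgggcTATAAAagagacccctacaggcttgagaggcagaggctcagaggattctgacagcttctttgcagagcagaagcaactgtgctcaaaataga
Cspg4, chr8:66160692-66160991, plus strand, 5′ to 3′: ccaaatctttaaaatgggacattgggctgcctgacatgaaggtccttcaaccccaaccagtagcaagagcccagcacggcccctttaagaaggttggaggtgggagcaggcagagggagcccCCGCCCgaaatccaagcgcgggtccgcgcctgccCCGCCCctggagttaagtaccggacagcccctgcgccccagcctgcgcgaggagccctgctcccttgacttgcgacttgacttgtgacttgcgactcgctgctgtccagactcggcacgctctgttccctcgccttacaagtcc
Abcc9, chr4:177386299-177386598, minus strand, 5′ to 3′: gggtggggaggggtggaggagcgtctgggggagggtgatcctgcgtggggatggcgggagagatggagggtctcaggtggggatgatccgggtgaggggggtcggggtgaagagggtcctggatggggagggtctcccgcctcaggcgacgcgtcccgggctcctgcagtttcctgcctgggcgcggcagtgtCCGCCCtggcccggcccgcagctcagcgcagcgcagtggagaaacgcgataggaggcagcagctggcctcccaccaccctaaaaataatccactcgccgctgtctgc
Motifs were searched on both strands, and no motif contains another. The first 3 were TGGGAA (the core bound by the Notch partner RBPJ, in 25.7% of the 33469 promoters of the table), TATAAA (in 14.2%) and the CArG box of smooth muscle genes (in 1.64%). GGGCGG (the GC box, in 33.1%) and CATTCC (the MCAT core, in 14.2%) were added after the matches of the first 3 had been seen. The Rgs4 promoter held TATAAA, from 42 to 37 bases before the start, and no GC box. The promoters of Rgs5 and Abcc9 each held 1 GC box and that of Cspg4 held 2, all on the opposite strand, and none of these 3 held any of the other motifs searched. GC boxes also occurred in the promoters of Kcnj8 and Notch3, which did not pass the test between the segments. Whether a GC box goes with the segment difference was not tested, and Notch3 was above background in only 1 area. Notch3 also held TGGGAA. GC content was 54.3% for Rgs5 and 52.7% for Rgs4, near the median of 51.7% over all promoters, and higher for Cspg4 (62.0%), Kcnj8 (67.0%), Abcc9 (69.0%) and Notch3 (69.0%).

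Levels were read against a background. For it, the 1126 targets of odorant and pheromone receptors, genes used mainly by olfactory tissue, were ranked within an area and their 99th percentile was taken. The background ran from 11.4 to 21.5 in signal units. Recovered counts per area ran from 322155 to 1476512 in Segment 1 (median 533137) and from 86386 to 688520 in Segment 2 (median 170042), so 1 count was worth more signal in Segment 2. The share of targets listed at 1 count had a median of 2.19% over Segment 1 areas and 28.5% over those of Segment 2. Intervals and tests on so few specimens are limited by their number.

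Of the 7 genes, 5 were above background in 9 or more areas. Angpt1 did so in 24 of 24 areas, Abcc9 in 22, Rgs5 in 19, Cspg4 in 13 and Kcnj8 in 9. Notch3 exceeded background in 1 area and Rgs4 in 0 of 24, with signals of 1.36 to 8.49 for Rgs4, which was at 1 count in 9 areas. Rgs4 and Notch3 can therefore not be read as expressed here, and their changes are given for completeness. Of 20 other mural cell genes 8 were above background in at least 4 areas, with Mcam and Anpep so in 24, Gja4 in 21, Ednra in 15 and Ebf1 in 13, and 9 were so in no area, among them Des, Vtn and Higd1b. Pdgfrb was above background in 2 areas. Of 20 endothelial genes 8 were above background in at least 4 areas, with Plvap, Sox18 and Aplnr so in 24 and Erg in 22, and 11 were so in no area, among them Pecam1, Cdh5 and Tek. The labelled tissue thus showed some mural and endothelial markers and lacked others at this background, and how well each probe reads rat RNA was not tested.

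**Figure D1:**
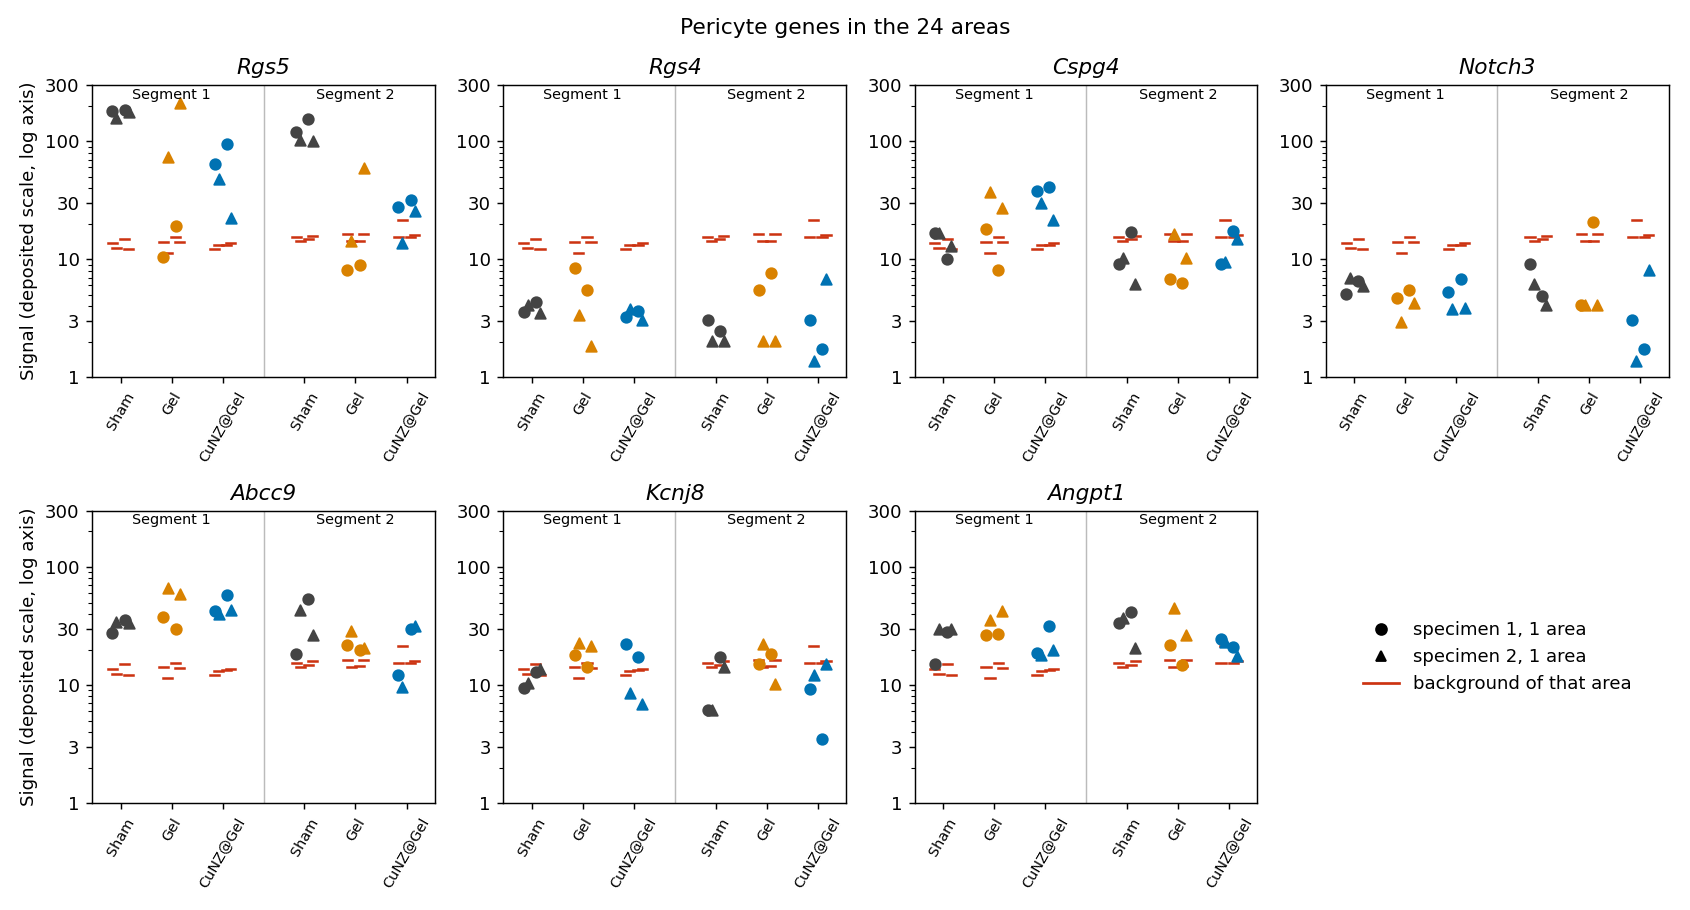
Signal of each gene in every area (log axis) by treatment and segment, with 1 point per area, circles for specimen 1 and triangles for specimen 2. Red ticks give the background of each area. Rgs5 in Sham sits between 100.2 and 185, all above background, while all Rgs4 points lie below it.

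The first comparison asks whether the genes differed between the segments of the same region. Rgs5, Cspg4 and Abcc9 were lower in Segment 2, by between 0.75 and 1.00 on the log2 scale, and the other 4 genes did not pass the test. Thus 3 of 7 genes were called lower, beside 1.59% of the 19728 targets tested that were called lower and 1.93% called either way. Targets near the floor are seldom called, and they make up most of the 19728. When only the 5483 targets above background in at least 4 areas were tested, 495 were called either way. These included 3 of the 5 pericyte genes among them. The median log2 change was -0.30 over the 7 genes and -0.01 over all targets tested, many of which lie near the floor. Over targets above background in at least 4 areas it was -0.20, and over the 5 pericyte genes among them -0.75. That filter can be passed in Segment 1 areas alone, where a median of 22.9% of targets were above background, against 19.8% in Segment 2. It may thus favour targets that are lower in Segment 2, so these medians and calls are no independent measure of the difference. Fewer cells of a type in an area and less RNA per cell cannot be told apart in these data.

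Rgs5 encodes a GTPase-activating protein that shortens signalling from G protein-coupled receptors, and is among the best known pericyte transcripts. In Sham its signal in Segment 1 was 179.6 and 185 in the regions of specimen 1 and 158 and 177 in those of specimen 2, against 119.6, 155, 102 and 100.2 in Segment 2. In CuNZ@Gel it was 64.6, 95.7, 48.1 and 22.2 in Segment 1 and 27.6, 31.5, 13.6 and 25.9 in Segment 2. In Gel it was 10.4, 19.1, 73.2 and 213 in Segment 1 and 8.18, 8.88, 14.3 and 59.3 in Segment 2. Segment 2 was thus the lower in 11 of 12 regions and in 6 of 6 specimens, the exception being region 2 of CuNZ@Gel specimen 2. Rgs5 was above background in 3 of 4 Gel Segment 1 areas, 1 of 4 Gel Segment 2 areas and 3 of 4 CuNZ@Gel Segment 2 areas. It was above background in all other areas. In region 1 of Gel specimen 1 both segments were below background. Rgs5 fell by 1.00 on the log2 scale from Segment 1 to Segment 2 (95% interval -1.28 to -0.72, SE 0.14, limma adjusted p = 8.87e-06). limma used a spread of 0.24, drawn toward that of other targets, where the gene's own was 0.43.

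Cspg4 encodes the NG2 proteoglycan, a surface protein of activated pericytes. Its signal ran from 8.18 to 41.1 in Segment 1 areas, of which 10 of 12 were above background, and from 6.13 to 17.5 in Segment 2 areas, of which 3 were. Segment 2 was lower in 11 of 12 regions and in 6 of 6 specimens, and the exception was region 2 of Sham specimen 1, with 10.1 in Segment 1 and 17.2 in Segment 2. Cspg4 fell by 0.91 on the log2 scale (95% interval -1.27 to -0.55, SE 0.18, adjusted p = 0.000776).

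Abcc9 and Kcnj8 encode the regulatory subunit SUR2 and the pore Kir6.1 of the ATP-sensitive potassium channel of mural cells. Abcc9 ran from 27.4 to 66.8 in Segment 1 and from 9.54 to 54.0 in Segment 2. It was lower in Segment 2 in 10 of 12 regions but in 4 of 6 specimens: the mean log2 difference was 0.01 for Sham, -1.003 for Gel and -1.26 for CuNZ@Gel. Over all specimens Abcc9 fell by 0.75 (95% interval -1.05 to -0.45, SE 0.15, adjusted p = 0.00131), with a spread of 0.26 used and 0.45 of its own. Whether that difference varied with treatment was tested as an interaction, which 0.0507% of targets passed, and Abcc9 did not (adjusted p = 0.279). Its partner Kcnj8 was lower in Segment 2 in 7 of 12 regions, with a log2 change of -0.29 (95% interval -0.68 to 0.11, adjusted p = 0.501).

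Angpt1, which encodes the ligand angiopoietin-1, stood at 15.1 to 42.3 in Segment 1 and at 14.8 to 45.0 in Segment 2. Segment 2 was lower in 6 of 12 regions, and the interval of the change (-0.29 to 0.29) covers 0. Rgs4, a relative of Rgs5 in the R4 family, and Notch3, the Notch receptor of mural cells, had log2 changes of -0.30 (adjusted p = 0.529) and -0.04 (adjusted p = 0.951) at background levels. None of the 7 genes passed the interaction test.

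**Figure D2:**
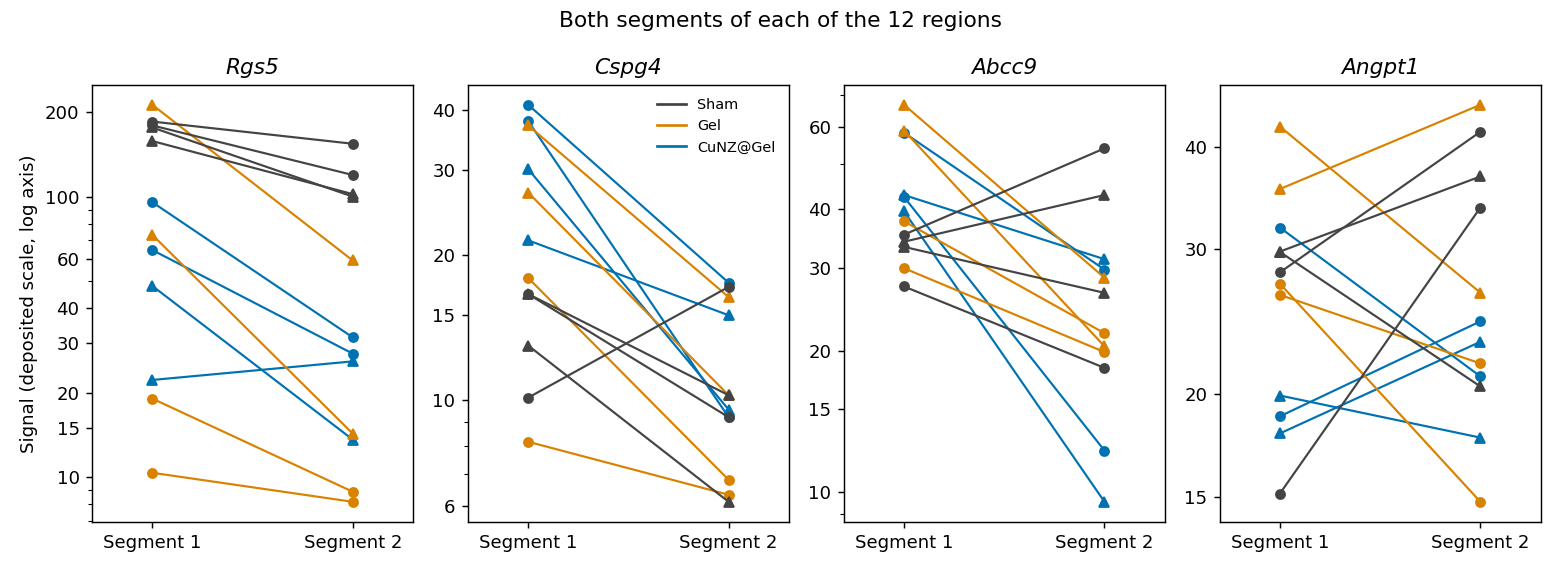
Signal (log axis) of Rgs5, Cspg4, Abcc9 and Angpt1 in Segment 1 and Segment 2, with a line for each of the 12 regions, coloured by treatment, and circles and triangles for specimens 1 and 2. Rgs5 and Cspg4 lines fall in 11 of 12 regions each, Abcc9 lines in 10 and Angpt1 lines in 6.

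Other vascular genes were lower in Segment 2 as well. Of 20 other mural cell genes 2 passed, both lower: Mcam (CD146, an adhesion molecule of vessel walls, -1.07, adjusted p = 3.85e-11) and Gja4 (the gap junction protein connexin 37, -0.64, adjusted p = 0.00294). Of 20 endothelial genes 4 passed, all lower, among them Plvap of fenestrated endothelium (-0.97, adjusted p = 4.27e-09), the apelin receptor gene Aplnr (-1.15, adjusted p = 2.27e-08) and the transcription factor gene Sox18 (-1.08, adjusted p = 2.65e-09). Of 18 Notch genes the ligand gene Dll4 (-0.72) and the feedback target Nrarp (-0.63) were lower, and of 5 angiopoietin partners the phosphatase gene Ptprb (-0.95), which restrains Tek, was lower. None of 14 smooth muscle genes, 6 PDGF genes, 8 other R4 RGS genes or 2 other channel subunits passed. In the interaction test, however, Acta2 (adjusted p = 0.00135) and Sox18 (adjusted p = 0.048) were among the 10 targets called. Their segment difference thus varied with treatment in that fit, and the change given for Sox18 is an average over treatments.

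Genes of other cells and depth moved with the segments too. Of 13 fibroblast genes 2 were lower in Segment 2 (Thy1, -0.63, and Col1a1, -0.43) and of 14 macrophage genes 3 (Csf1r, Mrc1 and Lyz2). Signal summed over the 13 fibroblast genes ran from 5090 to 33147 in Segment 1 areas and from 2014 to 20751 in Segment 2 areas. Col3a1, at 1193 to 25513 over all areas, weighs most in that sum. The sum of the 20 endothelial genes ran from 353 to 912 in Segment 1 areas and from 174 to 482 in Segment 2 areas. The part of these genes in the result was not tested. With every area thinned to 86386 counts, the depth of the shallowest, Rgs5 changed by -1.22 (adjusted p = 8.85e-06) and Cspg4 by -1.48 (adjusted p = 0.00739), while Abcc9 no longer passed (-0.78, adjusted p = 0.155). In region 2 alone Rgs5 was lower (-0.88, adjusted p = 0.000126), whereas Cspg4 (-0.60, adjusted p = 0.324) and Abcc9 (-0.53, adjusted p = 0.162) did not pass. Without limma's trend and robust options no target passed, and Rgs5 had an adjusted p of 0.145.

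Scaling bears on the direction of the calls. Of the targets called between the segments 82.4% were lower in Segment 2 (314 lower, 67 higher) as deposited, 76.9% after quantile normalization and 40.3% (112 lower, 166 higher) when areas were set to 1 median of targets above background. For targets above background in at least 4 areas the median change was -0.20 as deposited, -0.08 after quantile normalization and -0.05 after the median scaling. That last scaling moved the median change of all targets from -0.01 to 0.12. Under it Rgs5 changed by -0.85 (adjusted p = 0.000115), Cspg4 by -0.77 (adjusted p = 0.00806) and Abcc9 by -0.60 (adjusted p = 0.0102), so the direction of these 3 genes did not turn.

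The next comparisons ask what Gel and CuNZ@Gel did to the genes. They share their Sham or Gel specimens and are not independent of each other. No pericyte gene passed the test in any of them with both segments averaged, where 2.42% of targets were called for Gel against Sham, 1.31% for CuNZ@Gel against Sham and 0.943% for CuNZ@Gel against Gel. The median log2 change over the 7 genes was 0.01, -0.17 and -0.29, beside 0.06, 0.04 and -0.02 over all targets tested. Over the 5 pericyte genes above background in at least 4 areas it was 0.01, -0.17 and -0.15, beside -0.15, -0.16 and -0.0026 over all such targets, so the order for Gel against Sham turned and CuNZ@Gel against Sham showed next to no gap. Of all targets called, 74.5% were lower in Gel than in Sham and 75.3% lower in CuNZ@Gel than in Sham. These shares were 51.5% and 50.6% after quantile normalization and 54.0% and 51.0% after median scaling.

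Rgs5 had the widest differences between treatments and also between specimens. Specimen means over both segments were 159.8 and 134 for Sham, 11.6 and 89.9 for Gel and 54.8 and 27.5 for CuNZ@Gel, that is 147 ± 18.1, 50.8 ± 55.3 and 41.2 ± 19.4 (SD, n = 2 each). All specimens of both gels lay below both Sham specimens, but the Gel specimens differed more from each other than either did from CuNZ@Gel. The log2 change was -2.40 for Gel against Sham (95% interval -5.33 to 0.53, adjusted p = 0.498) and -2.01 for CuNZ@Gel against Sham (-4.94 to 0.92, adjusted p = 0.612). For CuNZ@Gel against Gel it was 0.39 (-2.54 to 3.32, adjusted p = 0.999). Here limma kept nearly the gene's own spread (0.98 used, 1.04 its own), which the Gel specimens widen for all 3 comparisons.

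The Rgs5 call turned on the Gel specimens and on the segment. Without Gel specimen 1 the changes were -1.22 for Gel against Sham (adjusted p = 2.97e-06), -2.01 for CuNZ@Gel against Sham (adjusted p = 3.65e-27) and -0.79 for CuNZ@Gel against Gel (adjusted p = 0.0245). Without Gel specimen 2 they were -3.59 (adjusted p = 9.79e-54), -2.01 (adjusted p = 1.37e-24) and 1.57 (adjusted p = 9.03e-10), so CuNZ@Gel against Gel changed sign with the specimen left out. In these fits limma used a spread of 0.18, where Rgs5's own was 0.48, and the single Gel specimen was assumed to vary like the other groups. With all specimens but without limma's trend and robust options, Gel against Sham passed (adjusted p = 0.00485) and CuNZ@Gel against Sham did not (adjusted p = 0.0709). On recovered counts edgeR gave -1.44 for Gel against Sham (adjusted p = 0.773).

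Within Segment 2, the mean Rgs5 signal of the Sham specimens was 119 ± 25.4, that of Gel 22.7 ± 19.99 and that of CuNZ@Gel 24.7 ± 6.93 (SD, n = 2). No Gel or CuNZ@Gel area reached the lowest Sham area. Of these, 1 of 4 Gel areas and 3 of 4 CuNZ@Gel areas were above background. The log2 change was -2.80 for Gel against Sham (adjusted p = 1.15e-17, where 1.56% of targets were called) and -2.27 for CuNZ@Gel against Sham (adjusted p = 9.89e-11, where 0.588% were called). The spread used was 0.30 against 0.75 of its own. Within Segment 1, the Sham mean was 175 ± 10.8, the Gel mean 78.9 ± 90.7 and the CuNZ@Gel mean 57.6 ± 31.8, with changes of -2.01 (adjusted p = 0.751) and -1.76 (adjusted p = 0.742). The treatment effect on Rgs5 was not shown to differ between the segments (interaction adjusted p = 0.870).

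The raw values were also compared by whether areas overlapped. Over both segments, all 8 CuNZ@Gel areas had less Rgs5 than all 8 Sham areas, which 0.897% of targets did in either direction, while for Gel no pericyte gene was free of overlap with Sham (0.735% of targets were). In Segment 2 Rgs5 alone of the 7 was lower without overlap, in Gel (5.26% of targets) and in CuNZ@Gel (4.32%). In Segment 1 Kcnj8 was higher without overlap in Gel (6.03%), and in CuNZ@Gel Cspg4 and Abcc9 were higher and Rgs5 lower (8.18%). No gene was free of overlap between CuNZ@Gel and Gel, over both segments (0.279%), in Segment 1 (3.94%) or in Segment 2 (3.09%).

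The other genes differed less between treatments. Cspg4 had specimen means of 13.3 and 11.5 for Sham, 9.81 and 22.7 for Gel and 26.5 and 19.0 for CuNZ@Gel. Its log2 change for CuNZ@Gel against Sham was 0.71 (95% interval 0.21 to 1.21, adjusted p = 0.184), with a spread of 0.25 used and 0.48 of its own. Its change for CuNZ@Gel against Gel was 0.52 (adjusted p = 0.716), and 1.07 (adjusted p = 0.0188) without Gel specimen 2. Kcnj8 averaged 11.3 ± 0.22 over the Sham specimens, 17.8 ± 2.05 over Gel and 11.9 ± 1.72 over CuNZ@Gel (SD, n = 2), a change of 0.65 for Gel against Sham (95% interval 0.16 to 1.14, adjusted p = 0.202). The channel subunit Abcc9 stood at 34.01 ± 0.32, 35.5 ± 11.6 and 33.3 ± 3.43, with changes of -0.02 (-0.42 to 0.39) and -0.17 (-0.57 to 0.24) against Sham. Angpt1 stood at 29.4 ± 0.33, 29.96 ± 10.4 and 21.9 ± 3.10, with changes of 0.01 (-0.42 to 0.43) and -0.38 (-0.80 to 0.04). With intervals this wide, a lack of effect was not shown for either gene.

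**Figure D3:**
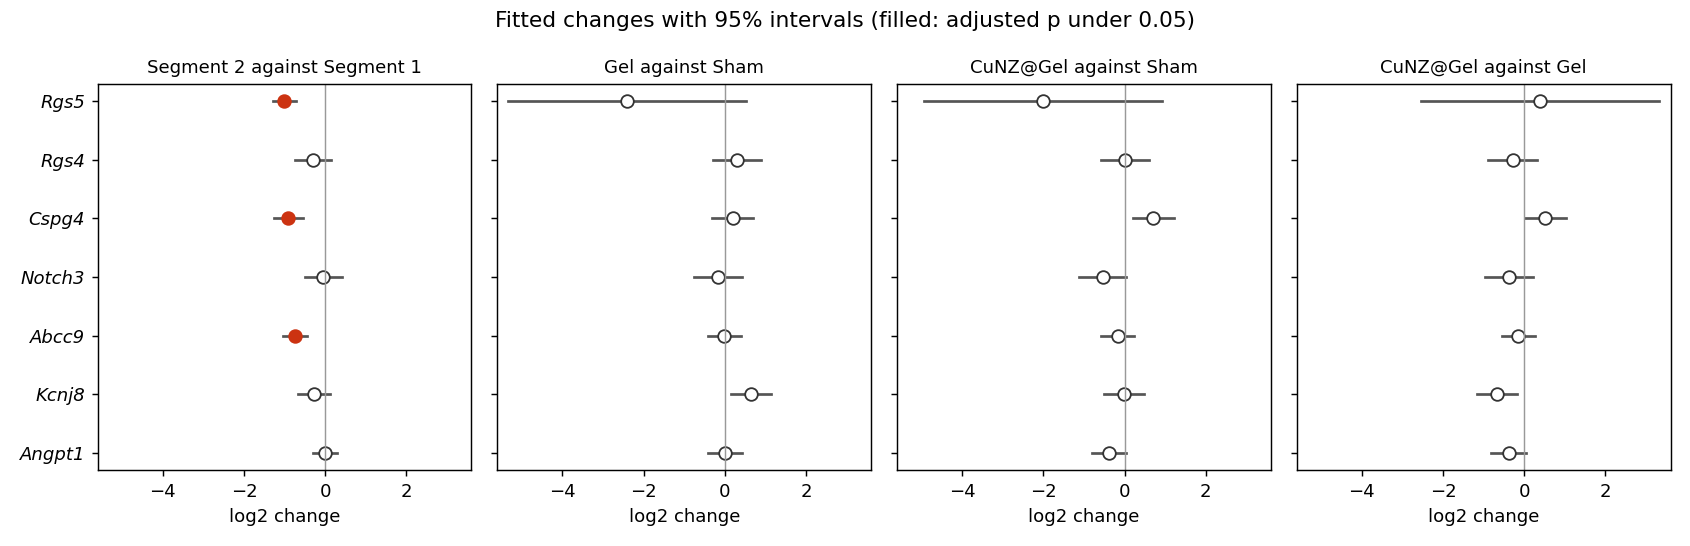
Fitted log2 change of each gene with its 95% interval in 4 comparisons, with filled points where the adjusted p was under 0.05. Filled points are Rgs5, Cspg4 and Abcc9 between the segments, and the Rgs5 intervals between treatments span from -5.33 to 3.32.

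Some smooth muscle and fibroblast genes also differed between the treatments. Of 14 smooth muscle genes 2 were lower in Gel than in Sham, Tagln and Itga8 (-2.12, adjusted p = 5.42e-13). In CuNZ@Gel 1 was lower than in Sham (Itga8), and 2 were higher than in Gel (Tagln and Itga8). Above background in no area were 8 of the 14, among them Myh11 and Cnn1. Tagln, a contractile protein gene of smooth muscle and myofibroblasts, averaged 74.7 ± 8.49 over Sham, 8.70 ± 4.26 over Gel and 46.3 ± 4.06 over CuNZ@Gel specimens (SD, n = 2). It fell by 3.01 in Gel against Sham (adjusted p = 9.58e-24) and was higher by 2.39 in CuNZ@Gel than in Gel (adjusted p = 6.46e-17). Acta2, smooth muscle actin, was 582 ± 107, 72.7 ± 67.3 and 391 ± 49.3, and its change for Gel against Sham was -3.43 (adjusted p = 0.316). Of 13 fibroblast genes 3 were lower in Gel than in Sham (Fap, Mfap5 and Lum) and 2 in CuNZ@Gel (Fap and Lum). Col3a1 weighs most in the summed signal of the 13 fibroblast genes. This sum ran from 11013 to 33147 over Sham areas, from 2014 to 11664 over Gel areas and from 7653 to 12977 over CuNZ@Gel areas. The part of these genes in the Rgs5 values was not tested. Among mural genes Mcam was higher (0.63, adjusted p = 0.0383) and the endothelin receptor gene Ednra lower (-0.78, adjusted p = 0.0468) in Gel than in Sham, out of 20. Of the 18 Notch genes Dll4 was higher in Gel than in Sham (0.97, adjusted p = 0.000717), and of 8 other R4 RGS genes Rgs2 was lower (-0.72, adjusted p = 0.0348).

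Correlations across the 24 areas are given as a description, since areas share specimens. Those of gene pairs are followed by the value after removing treatment by segment means. Those of the most alike targets, given last, are of the unadjusted areas only. Cspg4 and Abcc9 had a Pearson correlation of 0.72 (0.70), Rgs5 and Abcc9 0.44 (0.41) and Rgs5 and Cspg4 0.28 (0.57). Rgs5 had 0.70 (0.74) with Acta2 and 0.64 (0.50) with Tagln, but -0.11 (-0.21) with Myh11, which was above background in 0 areas. With Pdgfrb, above background in 2 areas, Rgs5 had 0.15 (0.16). With Mcam, Abcc9 had 0.72 (0.58) and Cspg4 0.67 (0.47), but Rgs5 had 0.15 (0.32) and Angpt1 0.11 (0.12). Abcc9 and its neighbour and channel partner Kcnj8 had 0.29 (0.18). Rgs4 and Notch3 had 0.60 (0.72), both near the floor of the assay. Among 4236 targets above background in at least 12 areas, those most like Rgs5 were Aqp1 (0.90), Thy1 (0.89) and C1qtnf5 (0.89), and those most like Cspg4 were Igfbp7 (0.78), Zc3h11a (0.72) and Arhgap31 (0.70). Those most like Abcc9 were Rtn4 (0.82), Babam1 (0.81) and Sptan1 (0.81), and those most like Angpt1 were Gypc (0.74), Lamtor2 (0.71) and Dcaf5 (0.70).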

How the data were processed

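GeoMx signal was measured in 24 areas. The authors deposited a signal value per target and area (for the software and scaling: not given in the sources used here). These deposited values shared nearly 1 75th percentile, and 99.98% to 99.995% per area were whole multiples (within 0.01) of the lowest, so counts could be recovered. The scale of analysis was log2(value + 1), on which changes of low targets are understated. Tests covered 19728 targets, all 7 genes included, that exceeded the negative probe in 4 areas or more. Areas were averaged per specimen, or per specimen and segment with the specimen as a block. Tests were limma 3.58.1 in R 4.3.3 (eBayes with trend and robust), adjusted by Benjamini-Hochberg over all targets at 0.05. They were also run on simulated data with the same spread for all targets, which does not check genes of wider spread such as Rgs5. edgeR 4.0.16 and DESeq2 1.42.0 on recovered counts, other scalings, filters and pseudocounts, thinning, single segments or regions and omitted specimens were alternatives. The 7 genes and the lists were chosen with earlier results of these data known. Named were all 7 genes, up to 3 called members of each list by smallest p, 11 vascular genes read beside them, and the 3 targets most correlated with each gene above background in at least 12 areas. The 2 added promoter motifs were chosen after the data were seen.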

Additional observations from a re-analysis of the deposited data

Results flagged for a closer look

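The values checked were 49 sets, each either the 4 areas of a gene in a treatment and segment or the segment differences of a gene over 6 specimens. In 4 sets, all of areas, 1 area stood far from the others, and chance gives about 1 such set in 20. Rgs5 in Gel Segment 2 was 59.3 in 1 area, against 8.18 to 14.3 in the other areas. Notch3 in Gel Segment 2 was 20.7 in 1 area, its only value above background, against 4.09 in the next. Angpt1 in Sham Segment 1 was 15.1 in 1 area, against 28.1 to 29.8. Angpt1 in CuNZ@Gel Segment 1 was 31.9 in 1 area, against 17.9 to 19.9.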

How the results depend on the processing

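Of the results for single genes under an alternative, 560 kept their side of the threshold and, outside the interaction test, their direction. The interaction test has no direction. Of the rest, 65 changed sign, 9 newly passed and 6 no longer passed. Rgs5, Cspg4 and Abcc9 stayed lower in Segment 2 under every alternative run, though not always past the threshold. The targets called between segments numbered 130 after quantile normalization, 0 (0 pericyte genes) without trend and robust, 57 thinned, 142 by DESeq2, 110 in region 1, 120 (1 pericyte gene) in region 2, and 198 to 404 with a specimen left out. The interaction called 3 with a pseudocount of 5, 1 with the background filter, 0 without trend and robust, 63 thinned and 0 to 36 with a specimen left out. Gel against Sham called 176 without trend and robust (1 pericyte gene), 280 thinned, 152 by DESeq2, 308 in Segment 2 (1 pericyte gene) and 271 to 752 with a specimen left out (0 to 1). CuNZ@Gel against Sham called 162 after quantile normalization, 44 without trend and robust, 100 thinned, 165 by edgeR, 59 by DESeq2, 116 in Segment 2 (1 pericyte gene) and 72 to 458 with a specimen left out (0 to 1). CuNZ@Gel against Gel called 75 without trend and robust, 55 by DESeq2, 119 in Segment 2 and 95 to 293 with a specimen left out (0 to 2). The specimen number as a replicate block called 500, 257 and 201 targets in these 3 comparisons and 0 pericyte genes. Same-numbered specimens did not deviate together (correlations 0.0033, -0.031 and -0.026). With 2 specimens per treatment this cannot show whether same-numbered specimens were handled together, which the labels do not say. Among the sign changes, 1 passed the threshold: Rgs5 for CuNZ@Gel against Gel without Gel specimen 1 (-0.79, adjusted p = 0.0245). Between segments, Notch3 became 0.019 (pseudocount of 5), 0.079 (median scaling), 0.076 (linear averaging), 0.17 (thinned), 0.47 (edgeR), 0.055 (region 2) and -0.21 to 0.16 with a specimen left out. Kcnj8 became 0.46 thinned. Angpt1 became 0.00049 (pseudocount of 5), 0.12 (quantile), 0.15 (median scaling), 0.0047 (linear averaging), 0.36 (region 1) and -0.17 to 0.11 with a specimen left out. For Gel against Sham, Rgs4 became -0.71 thinned and -0.31 to 0.91 with a specimen left out, Cspg4 -0.10 in Segment 2 and -0.36 to 0.74, Notch3 0.24 thinned, 0.22 by edgeR, 0.10 in Segment 2 and -0.53 to 0.20. Abcc9 became 0.16 (quantile), 0.13 (median scaling), 0.024 (linear averaging), 0.24 (edgeR), 0.23 (DESeq2), 0.49 (Segment 1) and -0.29 to 0.26, and Angpt1 -0.018 (linear averaging), -0.21 (thinned), -0.35 (Segment 2) and -0.35 to 0.36. For CuNZ@Gel against Sham, Rgs4 became -0.12 (quantile), -0.60 (thinned), -0.15 (edgeR), -0.13 (Segment 1) and -0.071 to 0.10, Abcc9 0.17 (edgeR), 0.15 (DESeq2) and 0.47 (Segment 1). Kcnj8 became 0.0066 (pseudocount of 5), 0.12 (median scaling), 0.064 (linear averaging), 0.12 (thinned), 0.24 (edgeR), 0.21 (DESeq2), 0.10 (Segment 1) and -0.054 to 0.021. For CuNZ@Gel against Gel, Rgs5 became -0.37 (edgeR), -0.40 (DESeq2) and -0.79 to 1.57 with a specimen left out, Rgs4 0.11 thinned and -0.90 to 0.32, Cspg4 -0.030 to 1.07, Notch3 0.14 in Segment 1 and Abcc9 -0.42 to 0.12. The cause was not tested, except that leaving out a specimen or segment fits fewer areas. Depth limits Segment 2 most, where a target at 1 count has only a floor.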
